A study of Oryza sativa Indica Group and Oryza sativa Japonica Group with 8 samples.

Results

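LOX1.1, PXG and JAMYB are rice genes linked to oxylipins, the signalling and defence compounds made from oxidised fatty acids, and to jasmonate. They were picked by name because earlier results of these data showed them lower in both tms5 lines than in the wild types at 23 °C, and each was found by symbol or synonym in the array's gene annotation. They are LOC4334049 for LOX1.1, LOC4336376 for PXG and LOC4351131 for JAMYB, 3 of the 17905 genes that the annotation names. Each had 1 probe set, a group of probes read as a single value, among the 57258 on the array, and all 3 probe sets passed the filter on low values. The differences at 23 °C therefore chose the genes and are given as a description, while the arrays at 28 °C took no part in the choice.

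Oxylipin synthesis starts with lipoxygenases, which add oxygen to polyunsaturated fatty acids. Some of the hydroperoxides they make are passed to allene oxide synthase and on to jasmonate. Others are used by peroxygenases such as PXG, caleosin proteins of lipid bodies that transfer an oxygen atom from a hydroperoxide to another fatty acid. Whether the product of LOX1.1 leads to jasmonate was not tested here. Jasmonate, as its isoleucine conjugate, is bound by the COI1 receptor together with JAZ (TIFY) repressors, which are then degraded and free transcription factors. JAMYB is a MYB transcription factor of rice that responds to jasmonate. In rice flowers jasmonate is known for its part in spikelet and anther development.

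RNA came from young panicles of 4 lines at the stages from microspore mother cell to meiosis, with 1 Affymetrix rice array per line and temperature, 8 in all. AnS-1, an indica line labelled a TGMS mutain (read here as mutant), was set against AnN, the indica wild type, and Os02g12290iL1, a japonica line in which Os02g12290 is knocked down by RNA interference, against ZH11, the japonica wild type. The study used both AnS-1 and Os02g12290iL1 as tms5 plants, and its question was the part of RNase ZS1 in mRNA metabolism. Plants were grown in cabinets at a day average of 28 °C (restrictive for tms5) or 23 °C (permissive), so tms5 at 28 °C, wild type at 28 °C, tms5 at 23 °C and wild type at 23 °C held 2 arrays each, 1 indica and 1 japonica. Each tms5 state was thus seen in a single line per background, and precision is limited by how few arrays there are. The sources used here name no separate plantings, so each p-value reflects the spread among these arrays, which may be technical.

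Intensities were quantile normalised, because the deposited arrays lay on different scales (medians of 139 and 141 on the indica arrays at 28 °C, 59.2 and 61.3 on those at 23 °C, and 109 to 117 in japonica). Spearman correlations between arrays ran from 0.835 to 0.989 over 28 pairs, and no 2 arrays were identical. The panicle label was borne out by 17 of 17 floral MADS-box and related genes and 12 of 13 meiosis genes above background on every array. Background here is the level below which 90% of the array's 64 probe sets for foreign reporter genes lay, 82.7 to 119 normalised units. Os02g12290 itself was not analysed here, but 2 reporter probe sets were at least 8-fold higher in Os02g12290iL1 than in ZH11 at both temperatures.

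LOX1.1 encodes a lipoxygenase, the class of enzyme that opens oxylipin synthesis. At 28 °C its intensity was 1353 in AnS-1 and 270.3 in Os02g12290iL1, against 1843 in AnN and 955 in ZH11. At 23 °C it was 119 in AnS-1 and 249.5 in Os02g12290iL1, against 477 in AnN and 1037 in ZH11. The tms5 line was the lower of its pair at both temperatures and in both backgrounds, but the levels of the backgrounds crossed, so that AnS-1 at 28 °C exceeded both wild types at 23 °C. At 23 °C both tms5 arrays lay below both wild-type arrays, which the choice of genes at 23 °C favours. How often this holds over all probe sets was not counted. At 28 °C the groups overlapped, since AnS-1 exceeded ZH11.

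PXG encodes the peroxygenase. At 28 °C its intensity was 137 in AnS-1 and 501 in Os02g12290iL1, against 338 in AnN and 766 in ZH11. At 23 °C it was 124 in AnS-1 and 56.6 in Os02g12290iL1, against 718 in AnN and 438 in ZH11. The tms5 line was again the lower of each pair. At 23 °C, where the genes were chosen, both tms5 arrays lay below both wild-type arrays. At 28 °C the groups overlapped, since Os02g12290iL1 exceeded AnN.

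JAMYB encodes the MYB factor. It had 280.4 in AnS-1 and 77.9 in Os02g12290iL1 at 28 °C, against 668 in AnN and 175 in ZH11. At 23 °C it had 58.7 in AnS-1 and 24.7 in Os02g12290iL1, against 667 in AnN and 117 in ZH11. At 23 °C, where the genes were chosen, the groups did not overlap. At 28 °C they did, as AnS-1 exceeded ZH11. AnN had nearly the same intensity at both temperatures, the highest of all lines, and Os02g12290iL1 was the lowest line at each.

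**Figure D1:**
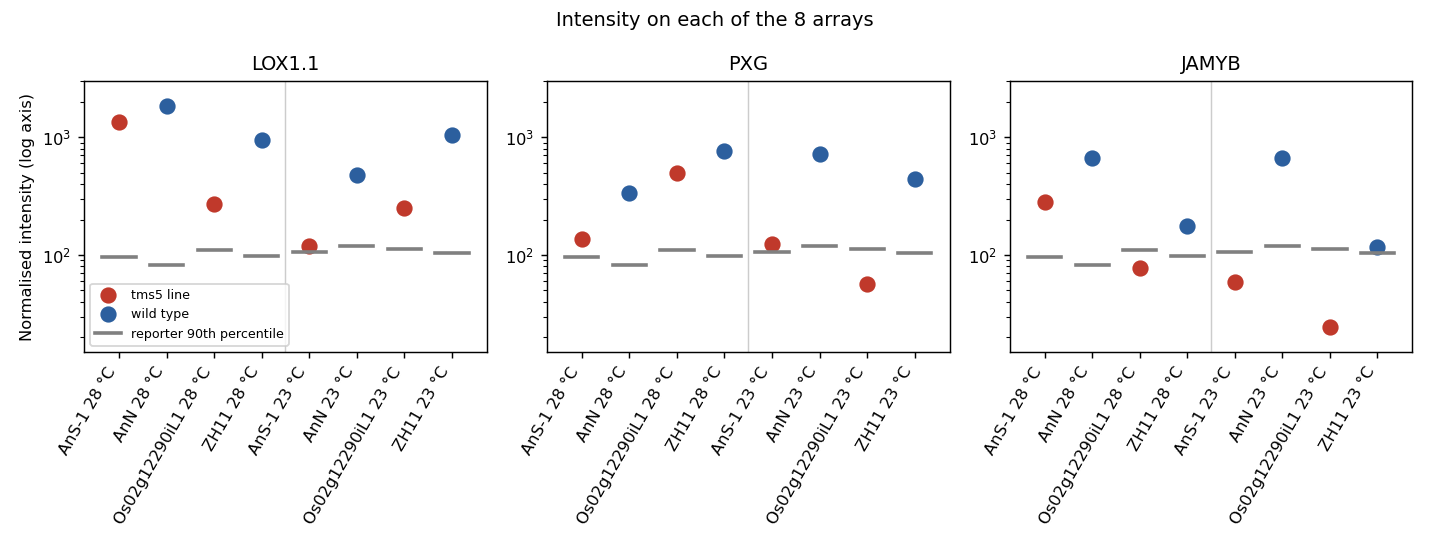
Normalised intensity (log axis) of LOX1.1, PXG and JAMYB on each array, with arrays at 28 °C left of the line and at 23 °C right of it. Red points are tms5 lines, blue points wild types, and grey bars the 90th percentile of the array's reporter probe sets. The red point of each pair lies below the blue one for all 3 genes, and JAMYB in Os02g12290iL1 lies below the grey bar at both temperatures.

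Over the 8 arrays the highest intensity was 15.5 times the lowest for LOX1.1, 13.5 times for PXG and 27 times for JAMYB. Ordered from low to high, JAMYB ran from Os02g12290iL1 and AnS-1 at 23 °C through Os02g12290iL1 at 28 °C, ZH11 at 23 °C, ZH11 at 28 °C and AnS-1 at 28 °C to AnN at 23 °C and AnN at 28 °C. For PXG the order began with Os02g12290iL1 and AnS-1 at 23 °C and ended with AnN at 23 °C and ZH11 at 28 °C. For LOX1.1 it began with AnS-1 and Os02g12290iL1 at 23 °C and ended with AnS-1 and AnN at 28 °C. Every line was measured once per temperature, so whether neighbours in these orders differ beyond the spread of a line cannot be said.

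Some of the lowest values lay among those of the reporter probe sets, where an array has little signal to measure. JAMYB in Os02g12290iL1 at 23 °C was above only 20 of the 64, and JAMYB in AnS-1 at 23 °C above 43. PXG in Os02g12290iL1 at 23 °C was above 44, and JAMYB in Os02g12290iL1 at 28 °C above 50. With the values of each array floored at the 90th percentile of its reporters, a setting added after the data were seen, JAMYB at 23 °C was lower by at least 6.29-fold for AnS-1 against AnN and by at least 1.03-fold for Os02g12290iL1 against ZH11. Between Os02g12290iL1 and ZH11 the fold was at least 3.86-fold for PXG at 23 °C and at least 1.58-fold for JAMYB at 28 °C. LOX1.1 lay above this floor on every array.

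At 28 °C, on arrays that did not choose the genes, all 3 were lower in tms5 than in wild type in both backgrounds, and none passed the limma test. This comparison asks whether the genes differ under the temperature that restricts tms5. Of all tested probe sets, 20.4% were lower in both backgrounds at 28 °C. The smaller of a gene's 2 changes was reached in both backgrounds, in a shared direction, by 536 of 34317 probe sets for LOX1.1. For PXG it was reached by 337 and for JAMYB by 158. Differences are of log2(intensity + 16), a scale that understates changes of dim probe sets. LOX1.1 had log2 differences of -0.44 in indica and -1.76 in japonica, with a mean of -1.10 ± 0.93 (SD, n = 2). PXG had -1.21 in indica and -0.60 in japonica, with a mean of -0.90 ± 0.43 (SD, n = 2). JAMYB had -1.21 in indica and -1.02 in japonica, with a mean of -1.11 ± 0.13 (SD, n = 2). Its japonica value rests on Os02g12290iL1 below the reporter level, and the mean was -0.90 with the floor.

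The adjusted p was 1 for each gene in limma with Benjamini-Hochberg adjustment over the 34317 probe sets tested, where 0 (0%) were called and 405 had an unadjusted p under 0.05. The unadjusted limma p was 0.025 for JAMYB, 0.264 for LOX1.1 and 0.272 for PXG, and the 95% intervals of the differences were -2.02 to -0.21, -3.34 to 1.14 and -2.77 to 0.97. At 28 °C a 2-fold or larger difference in both backgrounds was found downward in 0.487% of the tested probe sets and upward in 0.00874%. Fitted to the 4 arrays at 28 °C alone, with 1 array a side in each background, limma gave JAMYB an adjusted p of 0.0431, while the adjusted p over all its alternatives ran from 0.0431 to 1. The limma coefficient of LOX1.1 was 0.22 when Os02g12290iL1 at 28 °C was left out, and that of PXG 0.057 without AnS-1 at 28 °C. These fits of 7 arrays compare the remaining tms5 array with both wild types after a shift for background, and the intact pair was still at -0.44 for LOX1.1 and -0.60 for PXG.

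At 23 °C, the comparison that chose the genes, the log2 differences were -1.87 in indica and -1.99 in japonica for LOX1.1, -2.39 and -2.64 for PXG, and -3.19 and -1.71 for JAMYB. At 23 °C the share past 2-fold in both backgrounds was 0.347% downward and 0.0175% upward. The values of PXG in japonica and of JAMYB in both backgrounds at 23 °C rest on tms5 arrays below the reporter level, and the bounds above apply to them.

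The difference at 28 °C minus that at 23 °C was 1.43 in indica and 0.23 in japonica for LOX1.1, 1.18 and 2.05 for PXG, and 1.99 and 0.69 for JAMYB. All 6 values were positive, as were those of 29.2% of all tested probe sets in both backgrounds. As whole arrays, AnS-1 and AnN were less alike at 23 °C (Spearman correlation 0.9527) than at 28 °C (0.9886). Os02g12290iL1 and ZH11 were at 0.9892 and 0.9855. The larger gaps in indica at 23 °C are thus not particular to these genes. The 6 values of the 3 genes are a description. They share the arrays at 23 °C with the choice of the genes and were not tested. The 6 genes next to LOX1.1, PXG and JAMYB with a probe set, 1 on either side of each in the RefSeq gene order, had 9 probe sets, and in the 5 that were tested the log2 differences between tms5 and wild type were at most 0.40 in size at 23 °C and 0.23 at 28 °C. The 3 genes lie on 3 different chromosomes.

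Among the other lipoxygenases tested, LOX2 lay close to its wild types and LOX5 had no single direction. Of 8 lipoxygenase probe sets (6 genes), 3 passed the filter on low intensity, those of LOX1.1, LOX2 and LOX5. LOX2 had 729 in AnS-1 and 576 in Os02g12290iL1 at 28 °C, against 732 in AnN and 585 in ZH11, and 159 and 514 at 23 °C, against 163 and 551. Its log2 differences between tms5 and wild type lay between -0.10 and -0.01 in all 4 pairs. LOX5 had differences of -0.19 and 0.42 at 28 °C and -0.34 and 0.08 at 23 °C. CM-LOX1, CM-LOX2 and LOX3 were among the dimmer 40% of probe sets and were not tested.

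Enzymes listed for the jasmonate route after the lipoxygenase step had 13 probe sets (12 genes), of which 9 were tested. They were matched by symbol or synonym, genes named OPR among them. Whether each of them serves jasmonate synthesis was not tested. At 23 °C 5 of the 9 were lower in both tms5 lines (55.6%, against 26.6% of all tested probe sets). There 2 were higher (22.2%, against 35.2%), and 0 were at least 2-fold lower in both. OPR-1, an OPDA reductase by name, had -1.02 in indica and -0.84 in japonica at 23 °C (limma adjusted p = 0.9999), with both japonica arrays below the reporter level. AOS3, an allene oxide synthase, had 29.6 in AnS-1 and 19.5 in Os02g12290iL1 at 23 °C, against 384 in AnN and 36.4 in ZH11, and only AnN lay above the reporter level there. AOC, allene oxide cyclase, had 2932 in AnS-1 and 4442 in Os02g12290iL1 at 28 °C, against 2910 in AnN and 4188 in ZH11, and 3257 and 3926 at 23 °C, against 3130 and 3913. The conjugating enzyme gene GH3.5, also named JAR1, had differences of -0.14 in indica and -0.41 in japonica at 28 °C, and of 0.28 and -0.04 at 23 °C.

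Receptors and repressors had 27 probe sets (23 genes), with 25 tested. Of the receptor genes, COI1 had -0.02 in indica and 0.05 in japonica at 28 °C and -0.16 and 0.00 at 23 °C. COI1B had -0.01 and 0.03 at 28 °C and -0.02 and 0.01 at 23 °C, and COI2 -0.01 and -0.15 at 28 °C and 0.13 and 0.03 at 23 °C. Of the 25, 10 were lower in both tms5 lines at 23 °C (40%, against 26.6% of all tested probe sets). There 6 were higher (24%, against 35.2%). At 28 °C 4 were lower (16%, against 20.4%) and 7 higher (28%, against 31.7%). TIFY11C and TIFY10C, JAZ repressors, were the 2 repressors of this list that were lower by 1.5-fold or more in both backgrounds, at 23 °C. TIFY11C had -1.76 in indica and -0.66 in japonica, and TIFY10C -1.58 and -0.61. TIFY10C had 1802 in AnS-1 and 2170 in Os02g12290iL1 at 28 °C, against 2814 in AnN and 2936 in ZH11, and 835 and 1141 at 23 °C, against 2527 and 1749. It was the lower of each pair in the tms5 line, as JAMYB was. No probe set of this list passed the limma test between tms5 and wild type (adjusted p = 1 for each at 28 °C and 0.9999 for each at 23 °C).

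Of the other regulators, BHLH148 had differences of 0.08 in indica and 0.81 in japonica at 28 °C and of 0.47 and -0.06 at 23 °C, and so did not go with JAMYB in direction. MYB4 had -0.06 and 0.78 at 28 °C and -0.04 and -0.03 at 23 °C by 1 probe set. By its other it had -0.24 and 0.73 at 28 °C and -0.56 and -0.01 at 23 °C. With JAMYB, 3 of the 4 probe sets of this list were lower in both tms5 lines at 23 °C (75%, against 26.6% of all tested). JAMYB was chosen for that direction, and the japonica values of MYB4 were near 0. Among defence proteins, 4 of 6 probe sets were tested. The mannose-binding lectin gene salT stood at -3.49 in indica and -3.11 in japonica (log2 differences) at 23 °C by 1 probe set and at -4.55 and -3.00 by its other. At 28 °C the first stood at -0.93 in indica and 1.01 in japonica, and the other at -1.26 and 0.04, so the direction at 23 °C was not shared by japonica at 28 °C. At 23 °C RBBI3.3, a Bowman-Birk protease inhibitor, had -2.21 in indica and -0.90 in japonica, and PBZ1, a PR10 protein, -0.81 and -0.81. RBBI3.3 had -0.19 and -0.12 at 28 °C. At 28 °C PBZ1 had -0.81 in indica and 1.99 in japonica. By their names, the probe set of RBBI3.3 and 1 of salT also match other transcripts, so their values may hold more than 1 gene.

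Counted over all these lists without LOX1.1, PXG and JAMYB, 58 probe sets were found and 45 tested, and limma called 0 in either genotype comparison. At 23 °C 22 of the 45 were lower in both tms5 lines (48.9%, against 26.6% of all tested probe sets) and 8 were higher in both (17.8%, against 35.2%). At 28 °C 9 were lower in both (20%, against 20.4%) and 11 higher (24.4%, against 31.7%). At least 2-fold lower in both were 2 at 23 °C, both of salT, and 0 at 28 °C. Their median difference was -0.08 at 23 °C and 0.01 at 28 °C, beside 0.02 and 0.02 over all tested probe sets. Earlier results of these data had shown jasmonate genes lower at 23 °C, so that direction is no independent evidence.

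**Figure D2:**
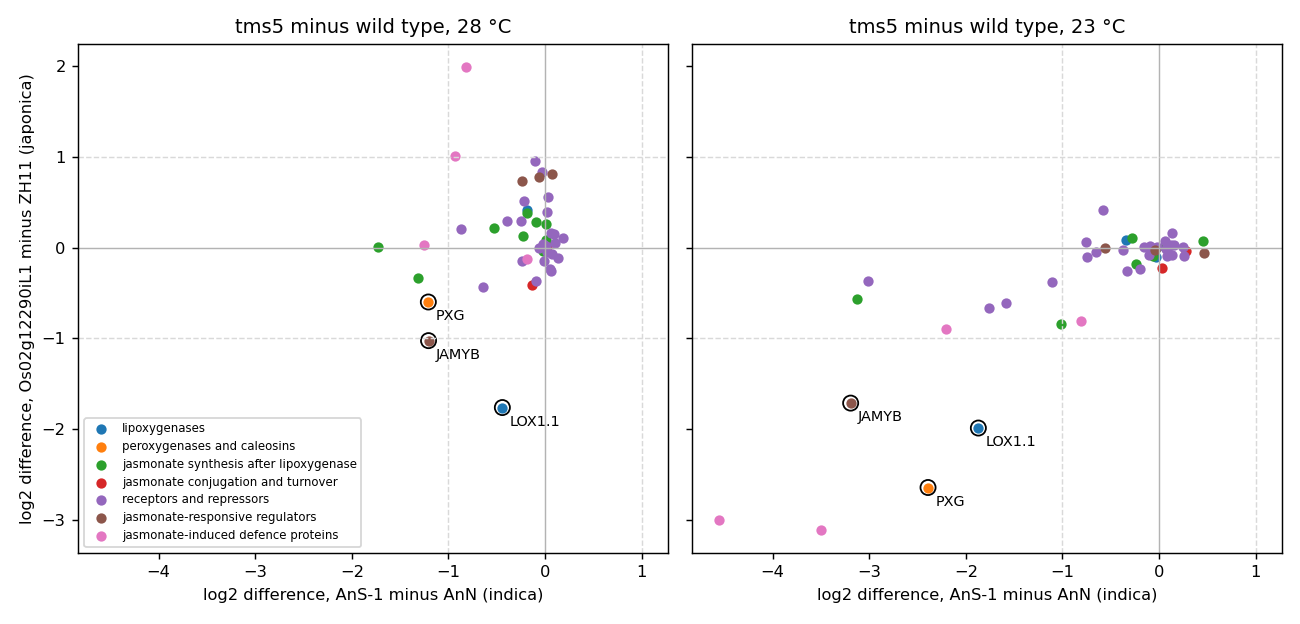
Log2 difference of the tested pathway probe sets, AnS-1 minus AnN (x) against Os02g12290iL1 minus ZH11 (y), at 28 °C (left) and 23 °C (right), coloured by list, with dashed lines at 2-fold. LOX1.1, PXG and JAMYB, ringed, are negative on both axes at both temperatures, and at 23 °C the 2 salT probe sets lie beyond them at -3.49 and -4.55 in indica.

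Markers of other tissues moved between the same arrays. Bulk panicle RNA cannot tell fewer cells of a type from less RNA per cell. The summed intensity of 16 green tissue probe sets was 10470 in AnS-1 and 9166 in Os02g12290iL1 at 23 °C, against 18510 in AnN and 9731 in ZH11, and 10830 and 5415 at 28 °C, against 11120 and 8399. The sum of 11 tapetum probe sets was 6685 and 31820 in the tms5 lines at 23 °C, against 11760 and 42230 in AnN and ZH11, and 15000 and 27500 at 28 °C, against 28130 and 41220. For 20 probe sets of lignified and vascular tissue the sums were 12230 and 18670 in tms5 at 23 °C, against 20160 and 20860 in wild type, and 27840 and 22050 at 28 °C, against 33150 and 22710. These 3 sums were lower in the tms5 line of every pair, as were LOX1.1, PXG and JAMYB. The gap was small at 28 °C for green tissue in indica and lignified tissue in japonica. Of tested probe sets at 28 °C, 4 of 13 green, 9 of 11 tapetum and 7 of 16 lignified were lower in both tms5 lines. These shares were 30.8%, 81.8% and 43.8%, against 20.4% of all tested probe sets. Higher in both were 2, 0 and 1, against a share of 31.7%. At 23 °C 9, 7 and 12 were lower in both (69.2%, 63.6% and 75%, against 26.6%). There 1, 0 and 0 were higher in both, against a share of 35.2%. The sum of 23 floral organ probe sets was 61100 and 56510 in tms5 at 23 °C, against 58920 and 57050 in wild type. At 28 °C it was 50710 and 55820, against 48340 and 54210.

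The sum of 17 meiosis probe sets was higher in the tms5 line of every pair, at 8844 and 11580 at 23 °C, against 6867 and 10660, and 5190 and 10590 at 28 °C, against 4413 and 10020. The part of tissue makeup or stage in the differences of the 3 genes was not tested. RBCS1 of green tissue, and 4CL1, 4CL2 and BC1 of lignified tissue, stayed under the reporter 90th percentile on every array.

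Between 28 °C and 23 °C the 3 genes differed from each other in which lines were higher. For LOX1.1 the log2 difference was 3.34 in AnS-1 and 1.91 in AnN, but 0.11 in Os02g12290iL1 and -0.12 in ZH11. PXG was the reverse in background, with 0.13 in AnS-1 and -1.05 in AnN, and 2.83 in Os02g12290iL1 and 0.79 in ZH11. JAMYB had 1.99 in AnS-1 and 1.21 in Os02g12290iL1, against 0.00 in AnN and 0.52 in ZH11. In all 3 genes the tms5 line of a background had the larger value of its pair, a direction that shares the arrays at 23 °C with the choice of genes. JAMYB lay below the reporter level on both Os02g12290iL1 arrays and in AnS-1 at 23 °C, and PXG in Os02g12290iL1 at 23 °C, so the sizes of these differences in the tms5 lines are not well measured.

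Averaged over tms5 and wild type, the difference was 1.31 for LOX1.1, 0.67 for PXG and 0.93 for JAMYB. None passed the limma test, which called 0 of 34317 probe sets (0%), 4950 having an unadjusted p under 0.05. The adjusted p was 0.316 for LOX1.1 and JAMYB and 0.426 for PXG. JAMYB had 0.99 in indica and 0.86 in japonica, a mean of 0.93 ± 0.09 (SD, n = 2), with an unadjusted limma p of 0.0135. With the reporter floor the mean was 0.44 (limma adjusted p = 0.477). The share of tested probe sets past 2-fold in both backgrounds was 0.157% upward at 28 °C and 0.0845% downward, and none of the 3 genes was among either.

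The indica arrays of the 2 temperatures lay on different deposited scales, and the temperature values of those lines depend on how the scale is set. As deposited, the median of the tested probe sets differed by 0.83 in AnS-1 and 0.86 in AnN, against -0.13 and -0.10 after quantile normalisation. PXG in AnN was then -0.10, against -1.05, and JAMYB in AnN 0.98, against 0.00. No label names batches, but by their deposited medians the arrays fall into 3 sets (indica at 28 °C, indica at 23 °C and japonica). With this set as a block, the temperature value comes from japonica alone and was 0.00 for LOX1.1. In indica, neither deposited scale nor array set can be told apart from temperature.

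**Figure D3:**
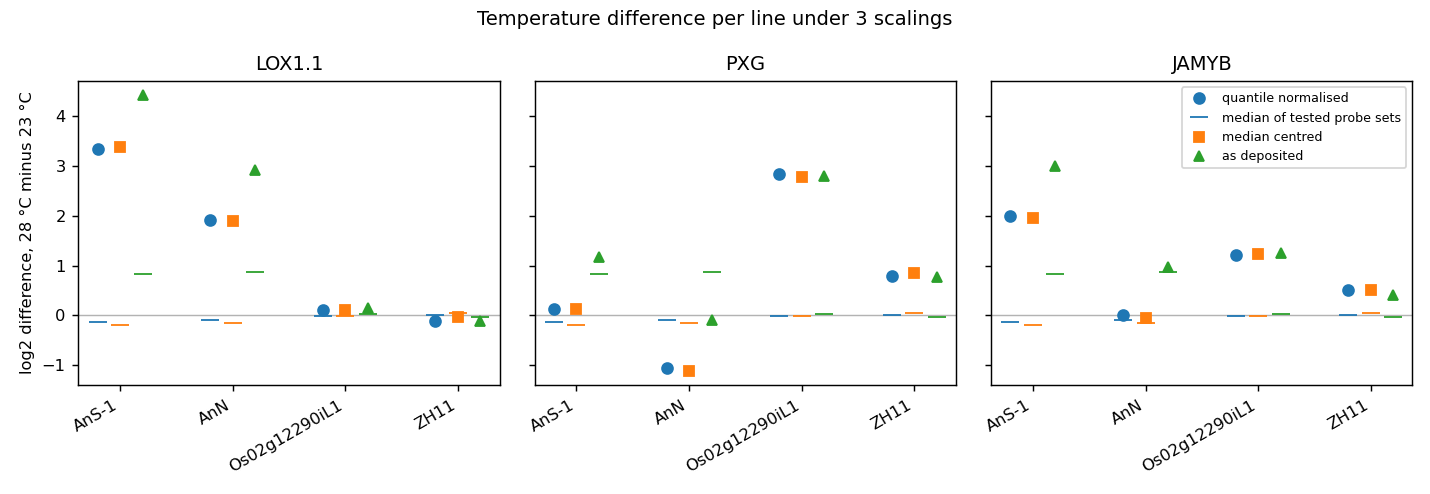
Log2 difference of 28 °C minus 23 °C (y) in each line (x) for LOX1.1, PXG and JAMYB with quantile normalised (circles), median centred (squares) and deposited values (triangles), dashes marking the median of tested probe sets under each scaling. The triangles of AnS-1 and AnN lie about as far above the circles as their dashes do, and those of the japonica lines lie close to the circles.

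Several pathway genes had a larger difference between 28 °C and 23 °C in indica than in japonica by value. The arrays as a whole also differed more between the temperatures in indica. Spearman correlations of 28 °C with 23 °C were 0.8513 in AnS-1 and 0.8545 in AnN. In Os02g12290iL1 and ZH11 they were 0.986 and 0.9865. TIFY11E, a JAZ repressor, had 1211 in AnS-1 and 1236 in AnN at 28 °C, against 16.6 and 21.4 at 23 °C. In japonica it had 2040 in Os02g12290iL1 and 1138 in ZH11 at 28 °C, against 1170 and 1380 at 23 °C. LOX2 had mean log2 differences of 2.08 in indica and 0.12 in japonica, BHLH148 3.10 and 0.20, and TIFY11C 2.26 and 0.09. MYB4 had -1.30 in indica and 0.03 in japonica by 1 probe set, and 2.38 and 0.05 by its other. LOX1.1, with 2.63 and 0.00, also had the larger value in indica, and PXG, with -0.46 and 1.81, did not. How common this pattern is over all probe sets was not counted, so it does not set LOX1.1 apart with the pathway. Of the 45 tested pathway probe sets, 20 were higher at 28 °C in both backgrounds (44.4%, against 23.9% of all tested). In both backgrounds 10 were lower (22.2%, against 32.9%), and 0 passed the limma test.

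JAMYB was lower in japonica than in indica, with a log2 difference of -1.68 ± 0.25 (SE of the limma fit), and passed the test (limma adjusted p = 0.00991). Each background was seen in a single wild type and a single tms5 line. The test therefore compares these lines and not indica and japonica rice at large. The japonica arrays were lower in all 4 pairs, with log2 differences of -1.66 between the tms5 lines and -1.84 between the wild types at 28 °C, and of -0.88 and -2.36 at 23 °C. Over all tested probe sets 27.7% passed this test, so the call is a common one here. Its adjusted p was 0.0584 with deposited values and 0.061 with the reporter floor, neither under the threshold of 0.05. The deposited scales also differed between the backgrounds, and background and scale cannot be told apart.

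LOX1.1 and PXG showed no single direction between the backgrounds. LOX1.1 was lower in japonica at 28 °C (-2.26 between the tms5 lines and -0.94 between the wild types) and higher at 23 °C (0.98 and 1.09). PXG was higher in japonica at 28 °C (1.75 and 1.14) and lower at 23 °C (-0.95 and -0.69). The averages were -0.28 for LOX1.1 (limma adjusted p = 0.755) and 0.31 for PXG (limma adjusted p = 0.672). Of the 45 other pathway probe sets 12 passed (26.7%, near the 27.7% over all tested probe sets), 8 higher and 4 lower in japonica, among them TIFY11A at 1.67 (limma adjusted p = 0.0145), GH3.5 at 0.93 (limma adjusted p = 0.00676) and COI1 at -0.60 (limma adjusted p = 0.0157).

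The profiles of the 3 genes over the 8 arrays were then compared with those of the 1258 other probe sets with 1 gene, an informative symbol and a range of at least 1 on the log2 scale. With each background's mean subtracted, the Pearson correlation was 0.386 between LOX1.1 and PXG, 0.782 between LOX1.1 and JAMYB and 0.811 between PXG and JAMYB, part of which the choice of genes by their values at 23 °C fixes. All correlations over arrays are descriptions, since the arrays share lines and deposited scales.

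For JAMYB the nearest profiles were HOS66 (r = 0.971), HOX12 (0.965), TIFY10C (0.963) and CML8 (0.963), of which HOX12 encodes a homeodomain protein, TIFY10C a JAZ repressor and CML8 a calmodulin-like protein. HOX12 had 2403 in AnS-1 and 1954 in Os02g12290iL1 at 28 °C, against 3772 in AnN and 3321 in ZH11, and 821 and 865 at 23 °C, against 2825 and 2832. In HOX12 as in JAMYB the tms5 arrays at 23 °C were the lowest of their backgrounds.

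For PXG they were ERR26 (r = 0.986), NYC1 (0.958), SGR (0.942) and XBOS36 (0.935). NYC1, a chlorophyll b reductase, and SGR, the stay-green protein, both act in chlorophyll breakdown. SGR had 348 in AnS-1 and 356.5 in Os02g12290iL1 at 28 °C, against 547 in AnN and 611 in ZH11, and 193 and 134 at 23 °C, against 1175 and 386. For LOX1.1 they were XDH (r = 0.970), BIPP2C1 (0.960), RAP (0.950) and LIR1 (0.946). XDH, xanthine dehydrogenase, had 2819 in AnS-1 and 1858 in Os02g12290iL1 at 28 °C, against 3881 in AnN and 3463 in ZH11, and 733 and 1992 at 23 °C, against 1383 and 2971.

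Without subtracting the background means, the nearest were ILI6 (r = 0.927), RBBI3.3 (0.894), XDH (0.886) and pinA (0.884) for LOX1.1. They were cbp3 (0.914), SGR (0.864), ERR26 (0.856) and MS (0.852) for PXG. For JAMYB they were HOS66 (0.979), osysl6 (0.962), IRL1 (0.958) and MIF1 (0.950). XDH, SGR, ERR26 and HOS66 were thus named by both measures.

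**Figure D4:**
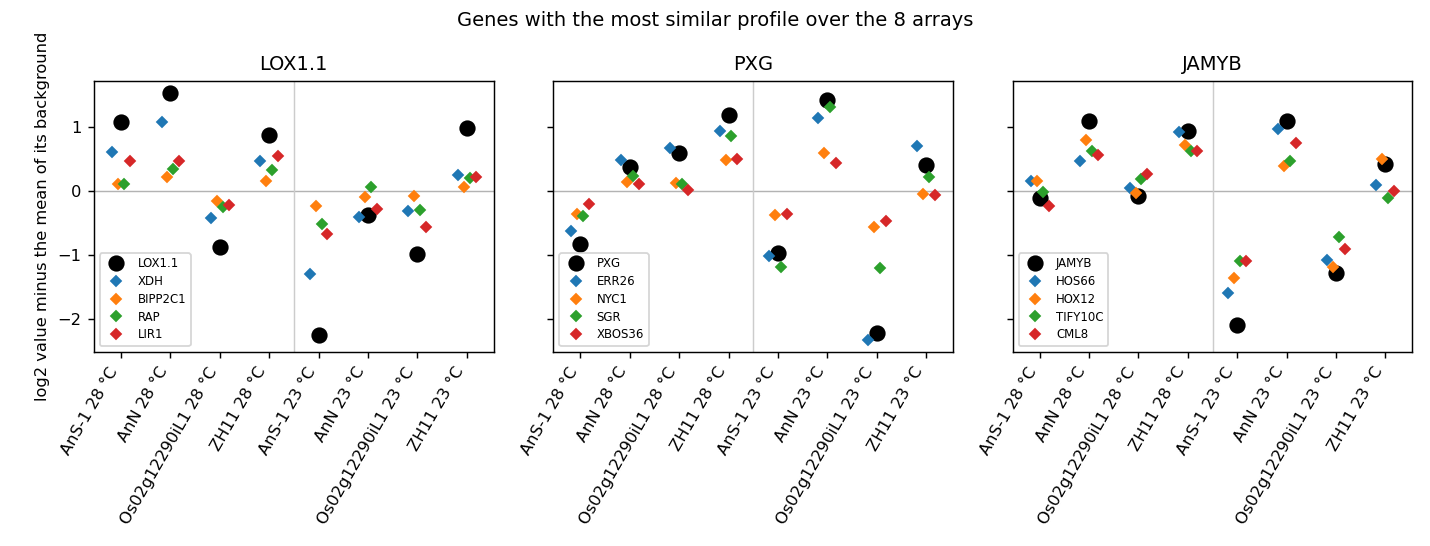
Log2 value minus the mean of its background (y) on each array (x) for LOX1.1, PXG and JAMYB (black circles) and the 4 genes with the highest correlation to each (coloured diamonds), arrays at 28 °C left of the line and at 23 °C right of it. For JAMYB and its 4 nearest genes the AnS-1 and Os02g12290iL1 arrays at 23 °C are the lowest.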

How the data were processed

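Young panicles of 4 rice lines at 2 temperatures were measured on 8 Affymetrix arrays. The authors deposited 1 intensity for each probe set and array. Per the submitters' processing notes these came from RMA in Affymetrix Expression Console, whose versions and scaling between arrays are not given in the sources used here. The intensities were linear, not on a log scale.

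All 8 arrays were quantile normalised. The 64 reporter probe sets were then left out, and log2(intensity + 16) of the upper 60% by mean (34317 of 57194) was fitted with limma 3.58.1 in R 4.3.3. The fit had means for the 4 groups, background (indica or japonica) as an additive block over both temperatures, and 3 residual and 2.16 prior degrees of freedom. Tests were two-sided with Benjamini-Hochberg adjustment, called under 0.05. In simulated data for tms5 against wild type at 28 °C with 34317 probe sets, 59 of 100 changes of 2 and 97 of 100 changes of 6 on the log2 scale were called, with 12 false calls. These counts check the code and do not measure the power of the test on the real arrays.

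The annotation assigned a single gene to 22436 probe sets, more than 1 to 95 and none to 34727. All 22436 were found in the RefSeq gene table (ASM3414082v1, used for names and gene order only). Pathway and marker lists were matched by symbol or synonym, leaving out 5 genes whose symbol stands for another gene. Named by rule were the 3 genes, up to 3 probe sets of each list, direction and comparison at least 1.5-fold different in both backgrounds, and the 4 nearest profiles. List members outside this rule, such as LOX2, LOX5, COI1, COI1B, COI2, MYB4, AOC, GH3.5 and TIFY11A, were named after their values were seen. The members and lists were chosen with earlier results of these data known. Alternatives were other pseudocounts, scalings, filters, blocks, fold thresholds and subsets of arrays, each array being left out once. Promoter and protein sequences were not analysed here.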

Additional observations from a re-analysis of the deposited data

Results flagged for a closer look

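LOX1.1 differed between the backgrounds in opposite directions at the 2 temperatures: japonica minus indica was -2.26 (tms5 lines) and -0.94 (wild types) at 28 °C, and 0.98 and 1.09 at 23 °C. PXG did so with the signs turned, at 1.75 and 1.14 at 28 °C, and -0.95 and -0.69 at 23 °C. These differences between temperatures were not tested. The indica arrays of the 2 temperatures were deposited on different scales and differed more in rank order than the japonica arrays did.

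Outside the main measurement, 2 of the 64 reporter probe sets were at least 8-fold higher in Os02g12290iL1 than in ZH11 at both temperatures, reaching 3222 at 28 °C and 3075 at 23 °C, against at most 54.6 in ZH11. None was so in AnS-1 against AnN (0 of 64).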

How the results depend on the processing

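Tms5 against wild type at 28 °C had 3 called probe sets with array set (inferred from the deposited medians) as a block and 135 with only those 4 arrays, where JAMYB was at -1.11 (limma adjusted p = 0.0431). Leaving out each array in turn, which leaves a group with 1 array assumed to vary like the others, gave coefficients of -2.42 to 0.22 for LOX1.1 and -1.86 to 0.057 for PXG at 28 °C. At 23 °C it gave 0 to 35 called probe sets (35 without Os02g12290iL1), -2.85 to -1.01 for LOX1.1 and -3.36 to -1.68 for PXG. Also at 23 °C, LOX1.1 was -2.02 with a pseudocount of 1 and -1.69 with 64, and PXG -2.73 and -2.06. With the reporter floor, PXG was -2.10 and JAMYB -1.26. At 1.5-fold, 7 other pathway probe sets were lower in both backgrounds at 23 °C, against 2 at 2-fold. For 28 °C against 23 °C, LOX1.1 was -0.0042 with array set as a block. For japonica against indica, 2988 probe sets were called with deposited values, against 9496, and JAMYB was -1.51 there (limma adjusted p = 0.0584) and -1.33 with the reporter floor (limma adjusted p = 0.061). Leaving out each array gave 3878 to 6893 calls, -0.74 to 0.38 for LOX1.1 and -0.17 to 0.73 for PXG. The causes were not tested. Array set or no background block for japonica against indica, and 4-array fits for it and for temperature, were not run. The reported fit has background as an additive block over both temperatures, and its genotype difference is the mean of the 2 pairs. Differences between backgrounds that change with temperature stay in its residual and widen its standard errors. Array set as a block takes them up. None of the 3 genes passed with it at 28 °C (limma adjusted p = 0.764 for PXG and 0.9997 for LOX1.1 and JAMYB). Without the background block, 0 probe sets were called in either genotype comparison, as with it.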
